A study of Mus musculus with 16 samples.

Results

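The distal ends of the mouse autosomes were described, defined as the last 2 Mb before the largest listed base of each of chromosomes 1 to 19. The units were 1-kb tiles with at least 3 cytosines in CpG context that each of the 16 libraries covered with 10 reads or more. The terminal tiles, as these are called here, numbered 1524 of 92383 autosomal tiles and held 14187 such sites. The rule uses position, coverage and the number of sites, and no methylation level. Mouse chromosomes carry the centromere at one end, so the last listed base lies on the side of the long-arm telomere. How far the assembled sequence reaches beyond that base was not analysed here, and the telomere repeats themselves are not among the tiles.

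A telomere is an array of short repeats that protects the chromosome end, and the region next to it is called subtelomeric. Subtelomeric DNA of mouse cells is normally heavily methylated at CpG, a state laid down by the de novo methyltransferases DNMT3A and DNMT3B and copied at replication by DNMT1. In mouse embryonic stem cells that lack these enzymes, telomeres are known to lengthen and to recombine more often. Pluripotent cells are also known to pass through short spells in which 2-cell-stage genes are on and telomeres are extended. Levels of RNA and lengths of telomeres were not measured in these libraries.

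The assay was reduced representation bisulfite sequencing (RRBS), in which MspI cuts at CCGG sites, CpG-rich fragments are kept and bisulfite turns unmethylated cytosine into a base read as thymine. The method does not separate 5-methylcytosine from 5-hydroxymethylcytosine. The 7 groups under reprogramming were OG2 mouse embryonic fibroblasts (MEFs) from embryos of strain 129XOG2 at E13.5, of passages 1 to 3, taken before the change of medium (D0) and after 2, 4, 6, 8, 10 and 12 days in reprogramming medium (D2, D4, D6, D8, D10 and D12). The eighth group was induced pluripotent stem cells (iPSCs) of the same strain, grown on feeder cells in a stem cell medium with mLIF and the inhibitors CHIR99021 and PD0325901. All groups share the OG2 background, a reporter of the pluripotency gene Oct4. The labels do not give the composition of the reprogramming medium, the line or number of clones of the iPSCs, or the removal of feeder cells. Each group had 2 libraries. No label says whether these are separate cultures or embryos, so a p-value here reflects only the spread between libraries of a group, possibly a technical one. The main limma and edgeR tests used below estimated that spread from all 16 libraries in 1 fit. The permutation tests used only the libraries of the compared groups.

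Between 1480222 and 2516218 sites were listed per library, with a median of 18 to 27 reads per listed site, and no library was left out. The terminal tiles held a median of 274 reads per tile and library, and the 5th and 95th percentiles were 72 and 1303 reads. Between replicates, the Pearson r over terminal tiles was 0.979 in D0, 0.654 in D12 and 0.963 in iPSCs, where tiles are not independent replicates. Reads carry no molecular identifiers and were amplified by PCR, so counts are not counts of molecules.

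Terminal tiles differed in make-up from the rest of the autosomes. They held a median of 7 listed CpGs per tile, against 6 in other autosomal tiles, and 14.6% of them held 20 or more CpGs, against 9.94%. At D0, 23.0% of terminal tiles were methylated below 20%, against 15.1% of other tiles. In D0 the mean level was 52.4% ± 0.065 (SD, n = 2) in terminal tiles and 57.9% ± 0.12 in all other autosomal tiles. Each terminal tile was therefore set against the other tiles of its own autosome in the same 10-point class of D0 level and the same class of listed CpGs (1 to 4, 5 to 9, 10 to 19, or 20 or more). The mean difference over tiles is called the end excess, in percentage points. It is near 0 in D0 by construction, and all 1524 terminal tiles had matched partners.

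The number of tiles per autosome end varied from 33 on chromosome 3 to 218 on chromosome 4, with a median of 53. In 8 of 19 autosomes the last 2 Mb held more tiles than the median 2-Mb window of the same autosome. Read depth over terminal sites was 0.987 to 1.04 of that over matched sites in the 14 libraries of D2 to D12 and iPSCs, and 0.959 and 0.962 of it in the D0 libraries. The part of this in the results was not tested.

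Autosome ends lost most of their methylation by D12 and carried nearly the D0 level in iPSCs. Terminal tiles averaged 52.3% and 52.4% in the D0 libraries, 49.7% and 49.3% in D2, 51.2% and 51.6% in D4, and 43.2% and 43.9% in D6. The level was 32.5% and 31.8% in D8, 23.6% and 24.0% in D10, and 16.7% and 16.9% in D12. In iPSCs it was 50.2% and 49.8%. The D2 to D12 libraries all lay below the D0 libraries, and those of D6 to D12 did not overlap between days. The iPSC libraries lay a few points below D0, as did those of D2. The difference was -35.6 points ± 0.095 (SE) for D12 against D0, -2.41 ± 0.18 for iPSC against D0, and 33.2 ± 0.19 for iPSC against D12. With 2 libraries in each group the exact two-sided permutation test cannot give less than p = 0.333, which is the value of all 3 comparisons.

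Tiles matched on starting level and CpG number followed the same course. In D12 the mean was 16.8% ± 0.12 in terminal tiles and 16.95% ± 0.085 in matched tiles (SD, n = 2 each). In iPSCs it was 49.98% ± 0.25 in terminal tiles and 50.1% ± 0.17 in matched tiles, and in D0 52.4% ± 0.065 and 52.4% ± 0.13. D12 retained 32.02% of the D0 level in terminal tiles and 32.4% in matched tiles. Of the D0 to D12 loss, 24.8% had occurred by D6, 56.8% by D8 and 80.2% by D10 in terminal tiles, against 25.1%, 56.5% and 80.4% in matched tiles. The end excess was -0.319 and -0.031 points in the D12 libraries and 0.064 and -0.032 points in the D0 libraries, and the ranges overlapped. It was -0.021 and -0.133 points in the iPSC libraries, a range that also overlapped with D0. The change was -0.19 ± 0.15 points (SE) for D12 against D0, -0.093 ± 0.074 for iPSC against D0 and 0.098 ± 0.15 for iPSC against D12, with an exact two-sided permutation p of 0.667 in each. These differences were not larger than the spread between libraries, and the D12 sign turned with the window, at 0.56 points in the last 1 Mb. Without matching, the D12 change was 4.39 points, with D0 means of 52.4% in terminal tiles and 57.9% in all other autosomal tiles.

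**Figure D1:**
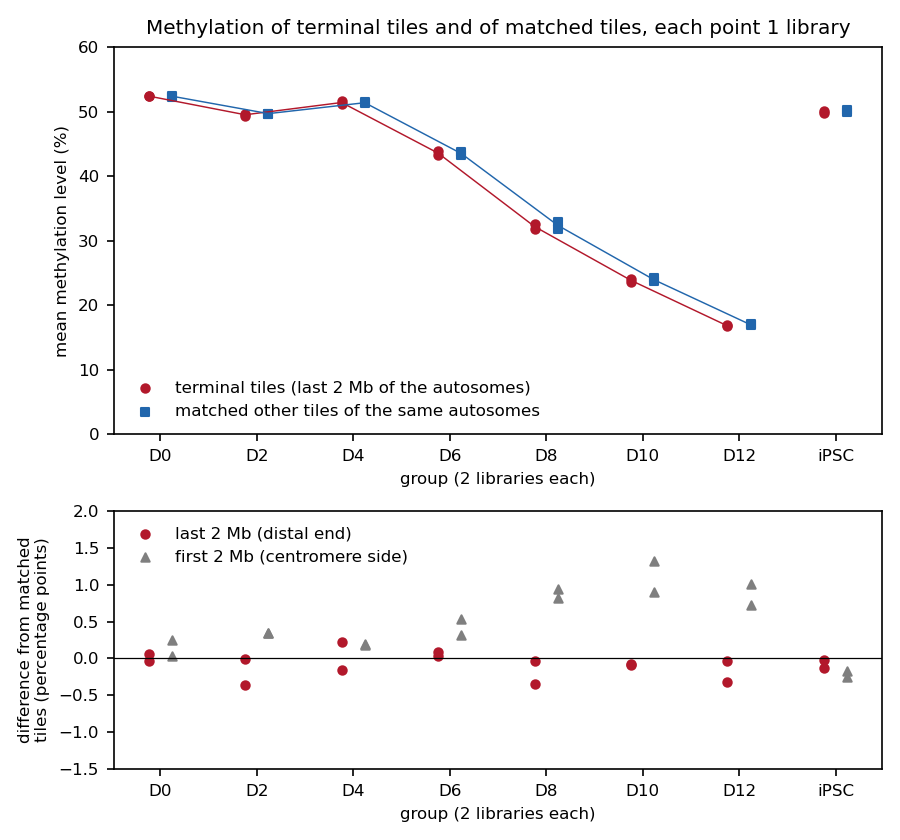
Upper plot: mean methylation level in percent of the 1524 terminal tiles (circles) and of matched tiles of the same autosomes (squares) in each of 16 libraries, with lines through group means from D0 to D12. Lower plot: difference from matched tiles in percentage points for the last 2 Mb (circles) and the first 2 Mb (triangles), where all circles lie within 0.4 points of 0 and triangles reach 1.33 points at D10.

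Within the terminal tiles, the sign of the end excess varied with starting level and CpG number. The 295 tiles at 80% or more in D0 had 26.0% ± 0.63 in D12, against 27.4% ± 0.007 in their matched tiles, an excess of -1.36 ± 0.63 (SD, n = 2). The 350 tiles under 20% in D0 had 10.6% ± 0.44 in D12, against 9.62% ± 0.009 in matched tiles. The classes by CpG number differed in iPSCs. Tiles with 10 to 19 CpGs had 42.6% ± 0.060, against 44.3% ± 0.15 in matched tiles, and tiles with 20 or more CpGs had 19.4% ± 0.65, against 18.2% ± 0.23. These classes were described without a test.

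The first 2 Mb after the smallest listed base, on the centromere side, held 1545 tiles and served as the opposite end. Their excess over matched tiles was 0.86 ± 0.20 points in D12, -0.22 ± 0.057 in iPSCs and 0.15 ± 0.15 in D0 (SD, n = 2). The D12 change from D0 was thus -0.19 ± 0.15 points (SE) at the last 2 Mb and 0.72 ± 0.18 points at the first 2 Mb. The difference between the 2 ends was not tested.

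Distance from the last listed base separated the terminal tiles in D10 and D12. The 334 tiles of the last 0.5 Mb were higher than matched tiles more than 10 Mb away. The 301 tiles at 0.5 to 1 Mb and 889 tiles at 1 to 2 Mb were lower. Tiles at 2 to 5 Mb and 5 to 10 Mb were lower as well, so this was not particular to terminal tiles. In the last 0.5 Mb the D0 libraries had 57.8% and 58.4%, against 57.9% and 58.1% in matched tiles. The D10 libraries had 29.5% and 29.7% there, against 26.7% and 27.2% in matched tiles. In D12 the same tiles had 19.5% and 20.2%, against 18.5% and 18.4%. The excess was 0.11 ± 0.22 points in D0 and 1.13 ± 0.22 in D8 (SD, n = 2). In D10 it was 2.67 ± 0.23 and in D12 1.39 ± 0.48, while iPSCs had 0.51 ± 0.17. The D10 and D12 libraries did not overlap with the D0 libraries, which had -0.046 and 0.27 points of excess. The excess also lay above D0 in the D6 (0.30 and 0.74 points), D8 (0.97 and 1.28) and iPSC libraries (0.63 and 0.39).

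The change of the last 0.5 Mb was 2.56 ± 0.23 points (SE) for D10 against D0 and 1.28 ± 0.37 points for D12 against D0, both at the smallest exact permutation p of 0.333. The excess was above 0 in 10 of 19 autosomes in D0, 15 of 19 in D10 and 14 of 19 in D12. Leaving out each autosome in turn left 2.21 to 2.87 points for D10 and 1.04 to 1.56 points for D12. The size moved with the length taken, at 1.07 points in D10 and 0.50 points in D12 over the last 1 Mb, and 2.66 and 0.75 points over the last 0.25 Mb. At 0.5 to 1 Mb the excess was -0.86 ± 0.059 points in D10 and -0.64 ± 0.36 in D12, and at 1 to 2 Mb it was -1.02 ± 0.083 and -0.69 ± 0.067. Outside the terminal tiles, it was -1.03 ± 0.011 in D10 and -0.45 ± 0.13 in D12 at 2 to 5 Mb. At 5 to 10 Mb it was -0.79 ± 0.20 and -0.34 ± 0.028.

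The 116 slices of 0.5 Mb counted back from the chromosome ends reach 58 Mb, so tiles further away on the longer autosomes were not ranked. Among these slices, the last had the highest change for D10 against D0 (2.66 points against all other tiles, with a median slice of -0.44). It was also highest for D12 against D0 (1.35 points, with a median of -0.24). At the first 2 Mb, on the centromere side, the change was 0.97 ± 0.24 points (SE) for D10 and 0.72 ± 0.18 points for D12. The slice at 31 to 31.5 Mb came next, with 2.46 points for D10 and 1.34 points for D12, so that the D12 lead was 0.01 points, and the slice at 47.5 to 48 Mb had 1.33 points for D12. The last slice ranked 14 at D6, 3 at D8 and 51 for iPSC against D0, where its change was 0.26 points. The SD over slices was 0.82 points for D10 and 0.56 points for D12. The window of 0.5 Mb was chosen after the values by distance had been seen, and each slice pools tiles of many autosomes, so these ranks are descriptive.

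**Figure D2:**
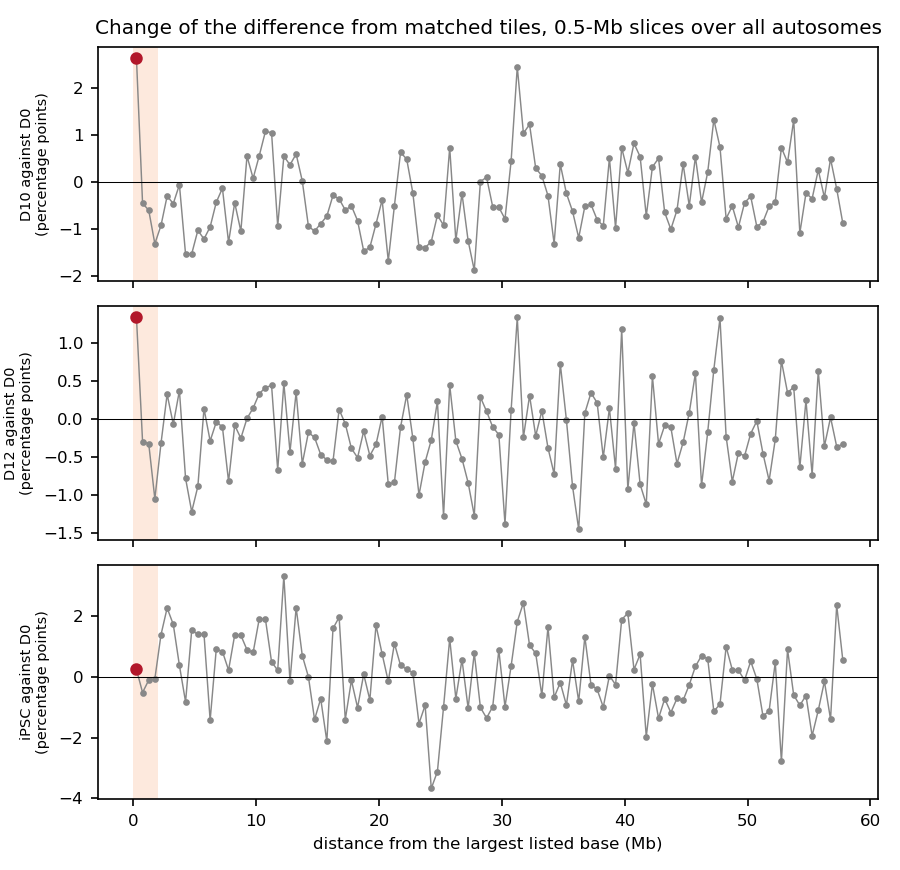
Change of the difference from matched tiles, in percentage points, for D10, D12 and iPSC against D0 (top to bottom), in 116 slices of 0.5 Mb pooled over 19 autosomes, by distance in Mb from the largest listed base. The slices end at 58 Mb, and tiles further away are not shown. The last slice (large circle, in the shaded last 2 Mb) is the highest of the 116 at 2.66 points in D10 and 1.35 points in D12. It lies at 0.26 points in iPSCs. The slice at 31 to 31.5 Mb is close below it, at 2.46 points in D10 and 1.34 points in D12.

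By starting level, the last 0.5 Mb held more methylation than matched tiles in each class in D10. The 88 tiles at 80% or more in D0 had 48.6% ± 0.42 in D10, against 45.0% ± 0.32 in matched tiles. They also had 79.4% ± 0.20 in iPSCs, against 75.2% ± 0.001 in matched tiles. The 190 tiles between 20% and 80% had 27.0% ± 0.17 in D10, against 24.4% ± 0.41, and 56.9% ± 0.67 in iPSCs, against 58.0% ± 0.30. The iPSC excess therefore had opposite signs in these classes.

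The autosomes contributed unevenly. In the last 0.5 Mb, the D10 excess was 8.41 points on chromosome 6 (18 tiles), 6.61 on chromosome 13 (10 tiles), 6.44 on chromosome 14 (8 tiles) and 5.86 on chromosome 11 (20 tiles). It was below 0 on chromosomes 7, 8, 10 and 16, between -0.23 and -1.29 points. In D12 chromosome 13 stood at 9.88 points and chromosome 19 at -3.09 points. The 10 tiles of chromosome 13 include a group of 4 called higher in D12, which is described further on. The value without that group was not computed for the last 0.5 Mb.

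Each autosome end was then tested as a unit, with limma on its end excess in the 16 libraries and Benjamini-Hochberg adjustment over the 19 ends. For D12 against D0, 1 of 19 ends (5.26%) passed adjusted p 0.05, while 17.8% of all 1074 2-Mb windows of the autosomes passed in the same kind of fit over all windows. That end was chromosome 13. Its excess was 2.76 and 4.27 points in the D12 libraries, against 0.47 and -0.23 points in the D0 libraries, so the groups did not overlap. The level there was 20.7% and 22.05% in D12, against 53.3% and 53.1% in D0. The excess rose by 3.39 ± 0.83 points (SE, limma adjusted p = 0.0103 over the 19 ends and 0.0191 over all windows). The excess of the chromosome 13 end was already 1.78 and 1.79 points in the D4 libraries, and it was -1.13 and -2.12 points in the iPSC libraries. The chromosome 13 end no longer passed without D0 replicate 2 or without D12 replicate 2. The change was 1.77 points without the 4 chromosome 13 tiles called higher in D12, which are described further on.

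For iPSC against D0, 9 of 19 ends (47.4%) passed, against 53.9% of all 2-Mb windows. The share of ends lay below that of windows genome-wide, and ends moved in both directions. The excess was higher in iPSCs at the ends of chromosomes 1, 7, 8, 16 and 17 and lower at those of chromosomes 6, 15, 18 and 19. Chromosome 8 had the largest rise. Its excess was 4.13 and 4.70 points in the iPSC libraries, against -0.064 and 0.43 points in the D0 libraries, a difference of 4.23 ± 0.38 points (limma adjusted p = 5.5e-05). The level of that end was 61.0% and 61.3% in iPSCs, against 58.1% and 58.7% in D0. Chromosome 18 had the largest fall. Its excess was -4.43 and -6.18 points in the iPSC libraries, against -0.96 and -0.97 points in the D0 libraries, a difference of -4.34 ± 0.88 points (limma adjusted p = 5.5e-05). The other 7 differences lay between -2.93 and 3.07 points. Leaving out a library left 6 to 9 ends past the threshold.

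For iPSC against D12, 11 of 19 ends (57.9%) passed, against 56.7% of all windows. The largest were 5.94 points on chromosome 8, -6.25 points on chromosome 18 and -5.14 points on chromosome 13. Across the earlier days, limma passed 0 ends in D2, 1 in D4, 0 in D6, 5 in D8 and 9 in D10 against D0, where 0%, 0.279%, 1.77%, 24.5% and 48.6% of all windows passed. The D4 end was that of chromosome 8 (limma adjusted p = 0.0427 over the 19 ends), which did not pass in the fit over all windows (adjusted p = 0.255), while the counts of the other days were the same in both. At unadjusted p under 0.05 the D2 and D6 counts were 0 and 2 ends. Chromosome 6 had the largest D10 change. Its excess was 3.77 and 3.55 points in the D10 libraries, against -0.44 and -0.50 points in the D0 libraries.

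**Figure D3:**
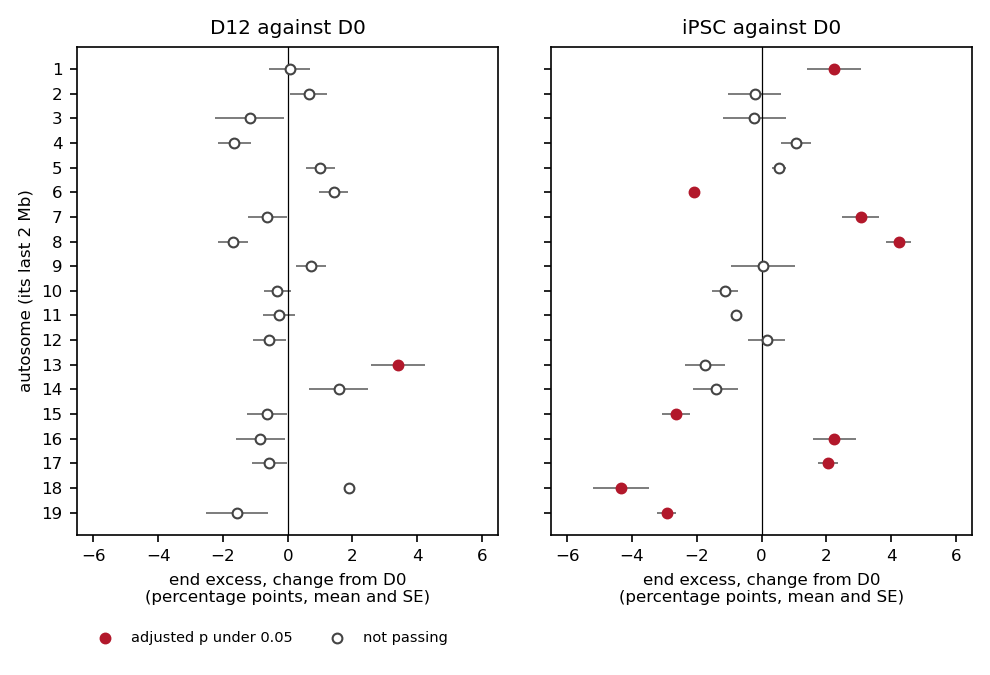
Change of the end excess from D0 in percentage points (x axis, mean and SE of 2 libraries against 2) at the last 2 Mb of each autosome (y axis), for D12 (left) and iPSC (right). Filled circles passed limma at adjusted p under 0.05, which were 1 end in D12 (chromosome 13, at 3.39 points) and 9 ends in iPSCs (from -4.34 on chromosome 18 to 4.23 points on chromosome 8).

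The ends lay inside the range of windows elsewhere on the autosomes. The SD over the 19 ends was 1.36 points for D12 against D0, against 1.53 points over all 1074 windows, and 2.22 points for iPSC against D0, against 2.70 points over all windows. The chromosome 13 end ranked 31 from the highest window for D12 against D0. For iPSC against D0, chromosome 8 ranked 63 from the highest and chromosome 18 ranked 53 from the lowest. In each of these comparisons, 1 of 19 ends lay outside the 5th to 95th percentile of all windows.

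**Figure D4:**
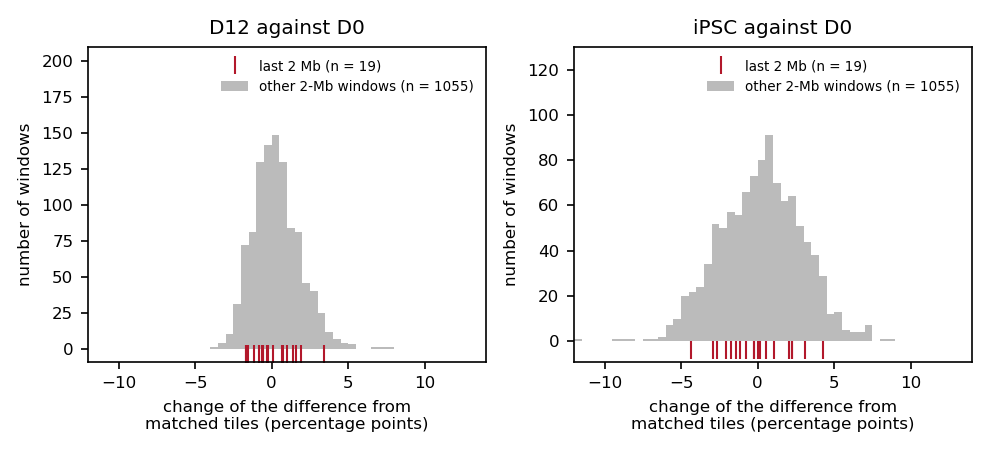
Number of 2-Mb windows (y axis) by the change of their difference from matched tiles in percentage points (x axis), for D12 against D0 (left) and iPSC against D0 (right). Marks under the bars show the 19 last windows, which span -1.70 to 3.39 points on the left and -4.34 to 4.23 points on the right, within the spread of the other windows.

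Single terminal tiles were tested with edgeR's quasi-likelihood test on methylated and unmethylated reads, fitted to all 94337 tiles and called at a Benjamini-Hochberg adjusted p under 0.05 with a difference of at least 10 points. For D12 against D0, 1128 terminal tiles (74.0%) were called lower, against 74.4% of matched tiles and 82.7% of all tiles tested. The median difference was -42.1 points in terminal tiles and -45.9 points in all tiles. The share called lower ran from 61.1% at the end of chromosome 19 to 97.1% at that of chromosome 14. There were 20 terminal tiles called higher (1.31%), against 0.972% of matched tiles and 0.649% of all tiles. Against D0, D6 had 301 tiles called lower (19.8%), with 18.8% of matched tiles and 21.3% of all tiles. It had 9 called higher (0.591%), with 0.160% of matched tiles and 0.104% of all tiles. Of these 9, 3 were neighbours on chromosome 13, in the group described further on. Another, chr19:60744001-60745000, had 37.3% and 6.41% in the D6 libraries. D8 had 961 lower (63.1%), with 64.6% of matched tiles and 72.3% of all tiles, and 22 higher (1.44%), with 0.836% of matched tiles and 0.544% of all tiles. D10 had 1117 lower (73.3%), with 73.6% of matched tiles and 81.6% of all tiles, and 7 higher (0.459%), with 0.311% of matched tiles and 0.201% of all tiles. D2 and D4 had 1 tile lower each, where 0.0488% and 0.0763% of all tiles were called. Terminal tiles called higher by edgeR were 0 in both days (0% of all tiles in D2 and 0.00424% in D4), and 4 and 24 were higher by 10 points at an unadjusted p under 0.05.

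The tile with the largest loss lay 517 kb from the last base of chromosome 19, at chr19:60801001-60802000 (GRCm39, 7 sites). It had 2.29% and 3.22% in the D12 libraries and 51.2% and 52.0% in the iPSC libraries, against 94.5% and 93.1% in the D0 libraries. It was called lower in both D12 and iPSCs against D0 by edgeR. On chromosome 4 the tile chr4:156322001-156323000 (6 sites, 277 kb from the last base) had no methylated read in either D12 library, 14.08% and 23.8% in the iPSC libraries, and 80.2% and 82.9% in the D0 libraries. A count of 0 methylated reads allows up to 0.688% and 1.21% in the D12 libraries (436 and 248 reads), taken as 3 counts of the reads of the tile, which covers counting error only. The other 3 of the 5 largest losses, on chromosomes 9, 12 and 15, had 7.28% to 11.2% in D12 and 80.3% to 86.6% in iPSCs, against 94.2% to 94.7% in D0.

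Few of the tiles called lower in D12 lay in runs of at least 3 adjacent called tiles. There were 13 such runs with 41 terminal tiles, 3.63% of those called lower, against 3.24% in the other autosomal tiles, and the longest held 4 tiles. On chromosome 4, chr4:155562001-155566000 had 18.5% in D12 and 75.4% in iPSCs, against 73.4% in D0. On chromosome 11, chr11:120062001-120066000 had 13.6% in D12 and 71.1% in iPSCs, against 67.7% in D0. The run chr4:155938001-155941000 was also called lower in iPSCs, at 71.5%, against 90.1% in D0.

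The tiles called higher in D12 were CpG-rich and little methylated at the start. The 20 tiles held a median of 26 listed CpGs, and averaged 26.7% ± 1.60 in D12 and 13.6% ± 0.87 in iPSCs, against 8.72% ± 0.16 in D0 (SD, n = 2). They had been chosen by the D12 contrast, so this is a description. The D6 and D12 contrasts share the D0 libraries. The 20 tiles averaged 12.3% ± 0.83 in D2, 18.6% ± 1.21 in D4, 19.6% ± 1.19 in D6 and 24.4% ± 1.87 in D8. In D10 they averaged 16.3% ± 0.66, so the level did not rise steadily.

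A group of 4 of the 20 tiles lay 287 to 291 kb from the last base of chromosome 13, between 120489001 and 120494000. In chr13:120492001-120493000 (32 sites, 670 to 2442 reads per library) the level was 44.2% and 44.4% in the D12 libraries, against 12.8% and 17.1% in the D0 libraries. The same tile had 32.7% and 38.2% in D4, 39.9% and 33.7% in D6, 54.5% and 36.8% in D8, 23.9% and 29.4% in D10, and 24.2% and 27.1% in iPSCs. Its D4 to D12 libraries all lay above its D0 libraries. The tile chr13:120489001-120490000 had 47.4% and 40.1% in D12 and 17.8% and 27.1% in iPSCs, against 22.2% and 16.4% in D0. The call in that second tile was lost at a minimum of 20 reads per site (edgeR adjusted p = 0.053). The other 2 tiles had 41.5% and 40.8% in D12, against 21.5% and 22.8% in D0. Which genes or repeats lie in these tiles was not looked up.

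The other 3 of the 5 largest gains had nearly no methylation in D0. The tile chr15:101982001-101983000 (59 CpGs) had 25.1% and 19.1% in D12, against 0.53% and 0.70% in D0. It already had 9.52% and 31.6% in D2. In iPSCs it had 17.2% and 8.97%, and was called higher than in D0 there as well (edgeR adjusted p = 0.0437). On chromosome 11, chr11:120515001-120516000 had 7.67% and 34.0% in D12, against 0.14% and 0.27% in D0, and its call was lost without D12 replicate 2. The third, chr11:120238001-120239000, had 23.5% and 21.7% in D12, against 0.85% and 0% in D0 (0 of 34 reads, which allows up to 8.82%), and its edgeR call was lost without either D0 or either D12 library. Only 34 to 117 reads per library covered it. In iPSCs these chromosome 11 tiles had 7.11% and 7.96%, and 40.6% and 14.3%, in the order given, and neither was called against D0.

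**Figure D5:**
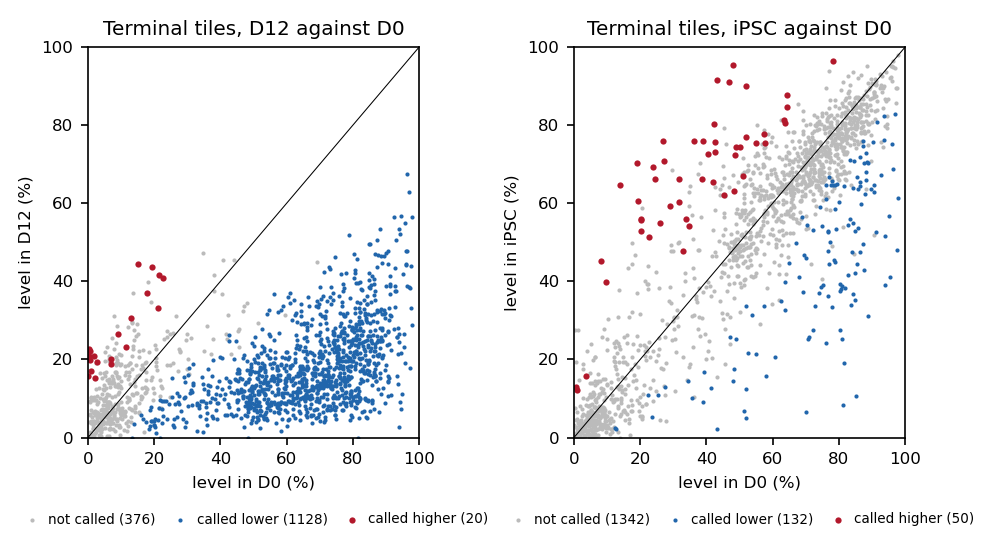
Methylation level of each of the 1524 terminal tiles in D12 (left) and iPSCs (right) on the y axis, against the level in D0 on the x axis, in percent and as means of 2 libraries, with the diagonal drawn. Tiles called lower by edgeR (1128 in D12, 132 in iPSCs) lie below the diagonal, and those called higher (20 in D12, 50 in iPSCs) above it.

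In iPSCs against D0, 132 terminal tiles (8.66%) were called lower, against 8.99% of matched tiles and 9.42% of all tiles. There were 50 called higher (3.28%), against 4.399% of matched tiles and 4.02% of all tiles. Leaving out a library of either group left 70 to 85 lower and 19 to 28 higher. The 50 higher tiles averaged 66.4% ± 0.55 in iPSCs and 12.8% ± 0.91 in D12, against 36.9% ± 0.93 in D0. The 132 lower tiles averaged 44.3% ± 0.41 in iPSCs and 21.7% ± 0.54 in D12, against 74.0% ± 0.27 in D0.

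The largest iPSC gains lay on chromosome 15, where 5 of 157 terminal tiles (3.18%) were called higher, against 3.28% of all terminal tiles. The tile chr15:103031001-103032000 had 72.5% and 68.0% in iPSCs and 3.51% and 5.18% in D12, against 18.1% and 19.9% in D0. The tile chr15:102854001-102855000 (926 to 3573 reads per library) had 65.2% and 64.3% in iPSCs and 5.19% and 1.66% in D12, against 14.9% and 13.2% in D0. Both passed edgeR under each alternative run. On chromosome 8, chr8:129177001-129178000 had 76.0% and 75.8% in iPSCs, against 27.8% and 25.9% in D0, but its call was lost without either library of either group. The tile chr8:128270001-128271000 had 100% and 90.9% in iPSCs, against 42.7% and 53.3% in D0, on 30 to 77 reads. The tile chr4:155225001-155226000 had 87.2% and 96.1% in iPSCs, against 47.2% and 39.0% in D0, and its call was lost without D0 replicate 2 or iPSC replicate 2.

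Among the largest losses in iPSCs, chr15:102149001-102150000 had 11.4% and 9.97% in iPSCs and 5.36% and 8.20% in D12, against 84.9% and 85.1% in D0. The tile chr12:118310001-118311000 had 12.2% and 4.30% in iPSCs and 25.5% and 29.6% in D12, against 81.1% and 81.5% in D0. A chromosome 18 tile 1449 kb from the last base had 35.1% and 27.1% in iPSCs and 43.2% and 45.9% in D12, against 87.4% and 90.1% in D0. These last 2 tiles were called lower in iPSCs than in D12 as well. The tile chr11:121816001-121817000, 46.9 kb from the last base, had 0% and 13.2% in iPSCs, against 64.1% and 76.2% in D0. The 0% rests on 36 reads and allows up to 8.33%, and the call was lost without D0 replicate 1, D0 replicate 2 or iPSC replicate 1.

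For iPSC against D12, 1088 terminal tiles (71.4%) were called higher, against 72.0% of matched tiles and 79.8% of all tiles, and 34 (2.23%) were called lower, against 2.05% of matched tiles and 1.48% of all tiles. The 5 largest gains ran from 81.4 to 84.7 points. Among them, chr11:121440001-121441000 (11 sites) had 93.7% and 86.3% in iPSCs, against 5.33% and 10.9% in D12 and 51.3% and 52.3% in D0, and it was also called higher in iPSCs than in D0. The 34 lower tiles had a median of 21 listed CpGs and averaged 8.37% ± 0.78 in iPSCs, against 25.9% ± 0.89 in D12 and 18.99% ± 0.63 in D0. The end of chromosome 15 held 5 of these 34 tiles, 3.18% of its 157 terminal tiles. Of the 5 largest of these losses, 4 lay there. The tile chr15:103248001-103249000 had 2.04% and 0.97% in iPSCs, against 38.4% and 20.1% in D12, and kept its call under each alternative run. The calls of the other 4, at chr15:102994001-102995000, chr15:102580001-102581000, chr15:102875001-102876000 and chr11:121342001-121343000, were each lost without at least 1 library.

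The single tile nearest to the last listed base of each autosome lay 0 to 84.3 kb from it, and 15 of 19 lay within 50 kb. Its level had a median of 19.8% in D12 (3.73% to 49.6% over the 19 autosomes) and 73.4% in iPSCs (3.81% to 93.6%), against 74.5% in D0 (3.96% to 91.3%). In D12, 17 of these 19 tiles were called lower than in D0, where 82.7% of all tiles were called lower. The other 2, on chromosomes 2 and 17, were not called. The chromosome 17 tile had 3.73% in D12, 3.81% in iPSCs and 3.96% in D0. The chromosome 2 tile had 2.33% and 27.8% in the D12 libraries, so its D12 mean rests on 1 library, and 9.90% and 10.4% in the iPSC libraries, against 16.96% and 11.3% in the D0 libraries. For iPSC against D0, edgeR called 0 of 19, where 4.02% of all tiles were called higher and 9.42% lower. With edgeR at unadjusted p under 0.05 there were 3, and limma on tile percent called 1. The chromosome 4 tile had 95.2% and 92.1% in iPSCs, against 82.7% and 85.6% in D0, and passed edgeR (adjusted p = 0.032), but its difference of 9.50 points was under the minimum of 10 points.

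At the inner border of the 2 Mb, tiles just inside had slightly lower levels than those just outside, without matching or a test. The 121 tiles of the last 0.1 Mb inside had 15.1% in D12, 51.5% in iPSCs and 53.1% in D0. The 95 tiles of the first 0.1 Mb outside had 16.2% in D12, 53.5% in iPSCs and 53.8% in D0.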

How the data were processed

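The authors' deposited tables list, per library, each covered cytosine with its coverage, a count of reads, plus the share read as C and as T in percent, per the file headers. The build was GRCm39, and methylKit, Bowtie2, Bismark 0.23.0 and fastp 0.20.1 were used, per the submitters' processing notes. Not given in the sources used here are trimming, mapping options and duplicate handling. Coverage times percent gave a whole number of methylated reads at each site, with a tolerance of 0.005 percentage points, the rounding of the deposited percent, and sites under 10 reads are not listed. Of 3179510 sites, 873038 (27.5%) were listed in all 16 libraries, and both strands of a CpG were kept as separate sites. Positions are counted from 1.

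A tile's level is its methylated reads over all reads at common sites, and a group's value is the mean of its 2 libraries. Tiles were tested with edgeR 4.0.16 (R 4.3.3; glmQLFit and glmQLFTest, a library effect, a coefficient per group and a common dispersion), and autosome ends with limma 3.58.1, all 16 libraries in 1 fit with 8 residual degrees of freedom. Single values were compared by exact permutation over libraries. The windows used as background held at least 30 matched tiles each and were added as an alternative after the data had been seen. The scripts were tested on simulated data. Named tiles were the up to 5 largest differences in each direction and contrast among called tiles with libraries that did not overlap, and the last tile of each autosome. Tiles in the text beyond that rule were chosen after their values were seen. The members and lists were chosen with earlier results of these data known. No sequence is printed, as no genome of the build of the files was used here.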

Additional observations from a re-analysis of the deposited data

How the results depend on the processing

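In the main setting, the change of the end excess over all terminal tiles stayed within library spread. Its sign was unstable over the alternatives, and some of their values were larger than that spread. For D12 against D0 (-0.191 points) it was 0.564 in the last 1 Mb, 4.39 without matching, 0.0046 with at least 5 sites per tile, 0.0892 on pooled reads and 0.0408 as a mean of the 19 autosomes. For iPSC against D0 (-0.093) it was 0.740 in the last 5 Mb and 0.325 without matching. For iPSC against D12 (0.098) it was -0.670 in the last 1 Mb, -4.06 without matching, -0.0442 with at least 5 sites, -1.02 on pooled reads and -0.138 as a mean of autosomes. Leaving out a library gave -0.334 to -0.0466 points, -0.149 to -0.0372 and -0.0463 to 0.242, in the same order of comparisons, with the negative value without D12 replicate 1. Before matching, terminal tiles had 52.4% in D0 and 16.8% in D12, against 57.9% and 17.8% in all other autosomal tiles. The causes of these moves were not tested.

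Autosome ends passing limma for D12 against D0 (1) were 3 at a minimum of 20 reads, 2 in the last 1 Mb, 2 in the last 5 Mb, 2 with the compared groups alone and 0 to 1 without a library. For iPSC against D0 (9) they were 3 in the last 1 Mb and 6 to 9 without a library, and for iPSC against D12 (11) 8 to 10 without a library. The cause was not tested.

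At a minimum of 20 reads, 769 terminal tiles were left. Calls for D12 against D0 were then 5 higher (0.65%, with 0.417% of all tiles in that fit) and 568 lower (73.9%, with 81.9%), for iPSC against D0 75 lower (9.75%, with 11.7%), and for iPSC against D12 540 higher (70.2%, with 78.96%) and 12 lower (1.56%, with 1.04%). The cause was not tested. A minimum of 25 points gave 1 higher tile for D12 against D0, 29 higher and 74 lower for iPSC against D0, and 4 lower for iPSC against D12. For these calls and those of the alternatives below, shares over all tiles were not counted. Whether such moves are particular to terminal tiles was not tested. For iPSC against D0, limma on tile percent called 98 higher, the compared groups alone gave 79 higher, and leaving out a library gave 19 to 28 higher and 70 to 85 lower. Of the 30 named tile results, 20 kept their call under all alternatives run, 10 lost it under at least 1 (9 of them without a library), and 0 reversed.

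Replicate numbers were shared across groups, and the correlation of same-numbered deviations over terminal tiles lay between -0.075 and 0.063 (28 pairs of groups). This does not settle whether same-numbered libraries share a culture, and the main tests treated them as unpaired. With the replicate block, the end excess was -0.191, -0.0929 and 0.0976 points, limma passed 1, 9 and 11 ends, and edgeR called 20 higher and 1125 lower for D12 against D0, 47 and 117 for iPSC against D0, and 1085 and 38 for iPSC against D12. The block changed no call counted here by over 1.5 times. The last 0.5 Mb kept its sign for D10 and D12 against D0 under each alternative run, all added after the data had been seen, with 2.40 to 2.72 points and 0.94 to 1.62 points without a library. Its size moved by over 1.5 times in the last 1 Mb (1.07 points for D10 and 0.50 points for D12) and, for D12, in the last 0.25 Mb (0.75 points). Low reads limit tiles with few sites, and the 2 libraries per group limit all tests.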
